A study of Mus musculus with 12 samples.

Results

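Gata4, Gata6, Sox7, Sox17, Dab2 and Foxa2, 6 regulators of the primitive endoderm, were read on microarrays of cells that had been taken from a mouse Notch-1 leukemia towards pluripotency. They were listed by symbol, with no threshold on their values but with earlier results of these data known, and are 6 of the 22180 genes that could be tested. Each is covered by 1 probe set. The 12 Affymetrix arrays fall into 4 groups of 3: established induced pluripotent stem (iPS) cells made from the leukemia, GFP-negative colonies that the labels call reprogrammed, GFP-positive colonies that they call partially reprogrammed, and the leukemia cells themselves, taken from the spleen. All groups, the leukemia included, carry the genotype R26rtTA;Col1a12lox-4F2A, that is, a doxycycline-dependent transactivator at Rosa26 and an inducible cassette of reprogramming factors at Col1a1. What GFP marks is not stated, and the iPS cells have the only growth conditions given, culture in embryonic stem cell medium. The leukemia titles all carry 1 leukemia number, and the titles call the arrays biological replicates without naming separate animals, cultures or clones, so a p-value here covers only how much such arrays vary.

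The primitive endoderm is the extra-embryonic layer that separates from the pluripotent epiblast in the blastocyst and later forms the visceral and parietal endoderm of the yolk sac. FGF4 made by epiblast cells acts through FGF receptors and ERK on neighbouring cells, where GATA6 gains over NANOG, and the receptor PDGFRA and the factors SOX17, GATA4 and SOX7 follow. The cells then sort to the surface of the inner cell mass with the help of the adaptor DAB2, lay down laminin, collagen IV and nidogen, and take up nutrients through megalin and cubilin. Genes of this programme also mark extra-embryonic endoderm-like cells that can arise during reprogramming, and for that reason they are set here beside the pluripotency and lineage genes of the same arrays.

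The labelled states were checked first. Levels are log2 values, so a difference of 1 is a 2-fold change, and list values are means over the genes of a list on 1 array. The pluripotency list stood at 9.49 to 9.55 on the iPS arrays, 6.53 to 9.55 on the GFP-negative arrays, 7.15 to 9.35 on those of GFP-positive colonies and 5.29 to 5.63 in leukemia. The T lineage list stood at 5.52 to 6.03 in iPS cells, 5.23 to 6.21 in GFP-negative colonies, 5.80 to 6.90 in GFP-positive colonies and 11.03 to 11.07 in the leukemia. The colony arrays were the uneven ones: pairs of arrays within a group correlated at 0.995 in iPS cells, 0.887 to 0.970 in GFP-negative colonies, 0.937 to 0.975 in GFP-positive colonies and 0.994 in the leukemia. Replicate 1 of the GFP-negative colonies went against its label. Nanog, a core pluripotency factor, read 5.07 there, where the other GFP-negative arrays read 11.35 and 11.85. Cd3e, a T cell receptor subunit, read 9.83 there, where they read 6.13 and 6.04. High Cd3e was not particular to this array, since the GFP-positive arrays read 8.50, 8.26 and 9.57. The other measured T lineage genes did not share it: on this array they read 4.98 to 6.85, against 9.33 to 12.08 in leukemia. Replicate 3 of the GFP-positive colonies had the highest macrophage list of the series, 9.00, against 6.57 and 6.57 on the other GFP-positive arrays. These 2 are called the uneven colony arrays, and results that rest on them are given with and without them.

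Of the 6 regulators, Sox7 alone was called higher in iPS cells than in leukemia, and Dab2 alone was called higher in GFP-positive colonies than in leukemia. No regulator passed the test between GFP-negative colonies and leukemia or between any pair of iPS and colony groups. Calls are from limma, with p-values adjusted by Benjamini-Hochberg over all 22180 genes and a threshold of 0.05. The share of all genes called was 24.3% for iPS cells against leukemia, 21% for GFP-negative colonies against leukemia and 21.9% for GFP-positive colonies against leukemia. It was 4.25% for iPS cells against GFP-negative colonies, 10.4% for iPS cells against GFP-positive colonies and 0% for GFP-negative against GFP-positive colonies, where 1413 genes had an unadjusted p under 0.05. A count of 1 of 6 is near the background in both comparisons that hold a call. The 3 comparisons with leukemia share the leukemia arrays. In these bulk samples fewer cells that express a gene and less RNA per cell cannot be told apart.

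**Figure D1:**
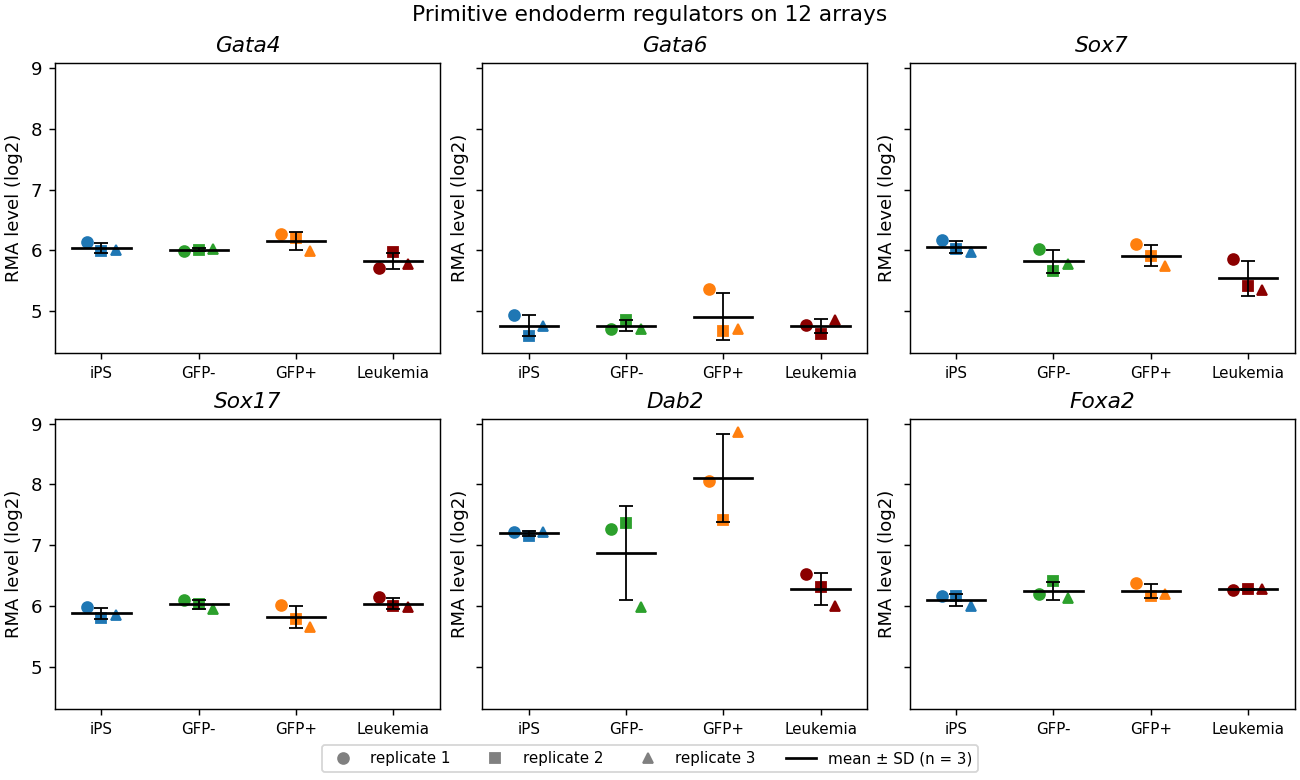
RMA level on the log2 scale (y axis) of each regulator on the 12 arrays, by group (x axis). Points are arrays, marked by replicate, and bars are the mean ± SD of 3 arrays. Dab2 runs from 5.98 to 8.87, while the other 5 genes each stay within a range of 0.83 or less.

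GATA4 and GATA6 are zinc finger factors that bind GATA sites, and in the mouse embryo Gata6 acts first and Gata4 follows. Gata4 read 6.13, 5.98 and 6.00 in iPS cells, 5.98, 6.01 and 6.03 in GFP-negative colonies, 6.27, 6.20 and 5.98 in GFP-positive colonies, and 5.71, 5.97 and 5.78 in leukemia. Every iPS and colony array lay above every leukemia array, though leukemia replicate 2 came close. The same lack of overlap, upward, was seen for 27.8% of all genes in iPS cells, 16.4% in GFP-negative colonies and 18.1% in GFP-positive colonies, each against leukemia.

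The Gata4 differences were small. From leukemia they were 0.22 ± 0.11 in iPS cells (SE, limma adjusted p = 0.182), 0.19 ± 0.11 in GFP-negative colonies (adjusted p = 0.266) and 0.33 ± 0.11 in GFP-positive colonies (adjusted p = 0.0519). None passed the test. Over all 6 comparisons the 95% intervals for Gata4 ran from -0.38 to 0.57, which bounds any difference in array signal at 1.48-fold. Group means of Gata4 lay above 45.3% to 49.3% of all genes, and signal over background is unknown. The GFP-positive difference was 0.41 without replicate 3 of that group, with an adjusted p of 0.0227.

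Gata6 read 4.93, 4.58 and 4.74 in iPS cells, 4.71, 4.86 and 4.70 in GFP-negative colonies, 5.36, 4.67 and 4.69 in GFP-positive colonies, and 4.77, 4.62 and 4.85 in leukemia. Replicate 1 of the GFP-positive colonies was the only array above 4.93, and the groups overlapped in every comparison. Against leukemia the difference was 0.00 ± 0.18 in iPS cells (limma adjusted p = 0.992), 0.00 ± 0.18 in GFP-negative colonies (adjusted p = 0.989) and 0.16 ± 0.18 in GFP-positive colonies (adjusted p = 0.596). The intervals for Gata6 over all comparisons ran from -0.55 to 0.55, or at most 1.47-fold either way in array signal. Group means of Gata6 lay above only 22.5% to 25.7% of all genes. At so low a level, with signal over background unknown, the intervals do not bound a difference in RNA.

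SOX7 and SOX17 belong to the SOXF group of HMG box factors, which act in extra-embryonic endoderm and also in blood vessel lining cells. Sox7 read 6.17, 6.02 and 5.98 in iPS cells, 6.02, 5.65 and 5.78 in GFP-negative colonies, 6.10, 5.90 and 5.74 in GFP-positive colonies, and 5.86, 5.41 and 5.34 in leukemia. The iPS arrays lay above all leukemia arrays, while both kinds of colony overlapped with leukemia replicate 1. Sox7 rose by 0.52 ± 0.16 in iPS cells over leukemia, a 1.43-fold difference (limma adjusted p = 0.0373). The difference from leukemia was 0.28 ± 0.16 in GFP-negative colonies (adjusted p = 0.260) and 0.38 ± 0.16 in GFP-positive colonies (adjusted p = 0.125).

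The Sox7 call was lost without any 1 of the 3 iPS arrays, with adjusted p-values of 0.126, 0.0844 and 0.0722, and without leukemia replicate 2 or 3, with adjusted p-values of 0.127 and 0.140. The difference was 0.42 to 0.56 in those 5 fits. Between iPS cells and colonies Sox7 differed by 0.24 ± 0.16 from GFP-negative (adjusted p = 0.441) and by 0.14 ± 0.16 from GFP-positive colonies (adjusted p = 0.621).

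Sox17 read 5.98, 5.80 and 5.85 in iPS cells, 6.10, 6.02 and 5.94 in GFP-negative colonies, 6.01, 5.78 and 5.66 in GFP-positive colonies, and 6.14, 5.99 and 5.98 in leukemia. These are overlapping ranges in every comparison, and no array left a span of 0.49. Against leukemia the difference was -0.16 ± 0.11 in iPS cells (limma adjusted p = 0.369), -0.01 ± 0.11 in GFP-negative colonies (adjusted p = 0.950) and -0.22 ± 0.11 in GFP-positive colonies (adjusted p = 0.209). The intervals for Sox17 over all comparisons ran from -0.47 to 0.45. With cyclic loess scaling the difference between GFP-negative colonies and leukemia was 0.076, of the opposite sign.

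Foxa2, a forkhead factor of visceral endoderm and later of definitive endoderm and gut, read 6.16, 6.16 and 5.99 in iPS cells, 6.19, 6.41 and 6.14 in GFP-negative colonies, 6.38, 6.17 and 6.19 in GFP-positive colonies, and 6.26, 6.27 and 6.28 in leukemia. The iPS arrays lay just below those of leukemia and of GFP-positive colonies. That lack of overlap, downward, held for 28.7% of all genes in iPS cells against leukemia and 17.1% in iPS cells against GFP-positive colonies. The differences from leukemia were -0.17 ± 0.11 in iPS cells (limma adjusted p = 0.300), -0.03 ± 0.11 in GFP-negative colonies (adjusted p = 0.891) and -0.03 ± 0.11 in GFP-positive colonies (adjusted p = 0.890). Cyclic loess scaling turned the GFP-negative value to 0.074 and the GFP-positive value to 0.087. Foxa2 had the narrowest intervals of the 6, from -0.41 to 0.24, or at most 1.33-fold in array signal. Group means of Foxa2 lay above 49.0% to 54.4% of all genes.

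Dab2 encodes an endocytic adaptor of clathrin-coated pits that binds the tails of megalin and other receptors, and Dab2 is used by visceral endoderm, kidney tubule and other epithelia and by some macrophages. In the mouse its expression in visceral endoderm is known to depend on GATA factors. Dab2 was the member with the widest spread, 2.88 over the 12 arrays. Because it is the member that moved most, the 250 bases before each of its 2 annotated starts are shown, from RefSeq on GRCm38.p6, gene strand, 5′ to 3′, in lower case with any match to a GATA motif in capitals.
Dab2, chr15:6299539-6299788, + strand: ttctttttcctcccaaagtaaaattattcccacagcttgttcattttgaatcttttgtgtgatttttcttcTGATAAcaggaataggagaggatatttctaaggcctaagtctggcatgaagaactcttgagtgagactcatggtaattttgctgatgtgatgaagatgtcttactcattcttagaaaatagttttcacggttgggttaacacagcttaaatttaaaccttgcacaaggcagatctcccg
Dab2, chr15:6386498-6386747, + strand: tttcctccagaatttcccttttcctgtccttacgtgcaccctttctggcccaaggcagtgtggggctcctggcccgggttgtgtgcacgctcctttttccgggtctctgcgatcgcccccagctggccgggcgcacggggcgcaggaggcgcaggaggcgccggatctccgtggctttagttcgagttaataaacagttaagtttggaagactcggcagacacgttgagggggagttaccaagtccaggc
The first window holds 1 GATA match, TGATAA, 179 bases before the start, and the second holds none. Both strands were searched, and matches of different motifs may share letters. The GATA motif was AGATAA with 3 variants, one that ends in G as AGATAG, one that starts with T as TGATAA, and the last with both changes, written TGATAG. For the SOX motif the letters were ACAAAG, or with T in the fifth place ACAATG. For the FOX motif they were TGTTTAC, or with G in the sixth place TGTTTGC. Neither a SOX nor a FOX match lay in the Dab2 windows. Of 32851 promoter windows of the same length, 26.5% held a GATA match, 25.2% a SOX match and 7.29% a FOX match. Of the 6 genes, 2 matched the promoter table, Dab2 and Foxa2, and of the 3 Foxa2 windows 1 held a match, with AGATAA at 183 and ACAAAG, on the other strand, at 171 bases before the start. A match of letters is a description and not a measured site.

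Dab2 read 7.21, 7.15 and 7.22 in iPS cells, 7.27, 7.37 and 5.98 in GFP-negative colonies, 8.05, 7.42 and 8.87 in GFP-positive colonies, and 6.53, 6.31 and 5.99 in leukemia. The GFP-positive arrays were the 3 highest of the series, and they overlapped with no other group. The iPS arrays also lay above all leukemia arrays. Among the GFP-negative arrays replicate 3 stood at the leukemia level and the other 2 beside the iPS arrays.

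Dab2 rose by 1.84 ± 0.40 in GFP-positive colonies over leukemia, a 3.57-fold difference with a 95% interval of 0.95 to 2.72 on the log2 scale (limma adjusted p = 0.00750). Without GFP-positive replicate 3 the difference was 1.46 and the adjusted p 0.0214, and the call held in all 14 alternative fits. Dab2 was 0.92 ± 0.40 higher in iPS cells than in leukemia, which missed the threshold (adjusted p = 0.129), and 0.60 ± 0.40 higher in GFP-negative colonies (adjusted p = 0.336). The SE rests on 1 spread shared by all 4 groups, and Dab2 varied most among the colony arrays. The iPS difference passed in 3 of 14 alternative fits. Its limma adjusted p was 0.000371 with the 6 iPS and leukemia arrays alone and 0.0429 without both uneven colony arrays.

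In order of group means, Dab2 stood at 8.11 ± 0.72 in GFP-positive colonies, 7.19 ± 0.04 in iPS cells, 6.88 ± 0.77 in GFP-negative colonies and 6.28 ± 0.27 in leukemia (SD, n = 3 each). No pair of neighbours in that order passed the test. Dab2 in iPS cells minus GFP-positive colonies was -0.92 ± 0.40, with an interval of -1.80 to -0.04 (limma adjusted p = 0.168). In iPS cells minus GFP-negative colonies it was 0.32 ± 0.40, with an interval of -0.56 to 1.20 (adjusted p = 0.699). In GFP-negative minus GFP-positive colonies it was -1.24 ± 0.40, with an interval of -2.12 to -0.36 (adjusted p = 0.731). The GFP-negative arrays all lay below the GFP-positive ones for Dab2, as did 2.23% of all genes.

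**Figure D2:**
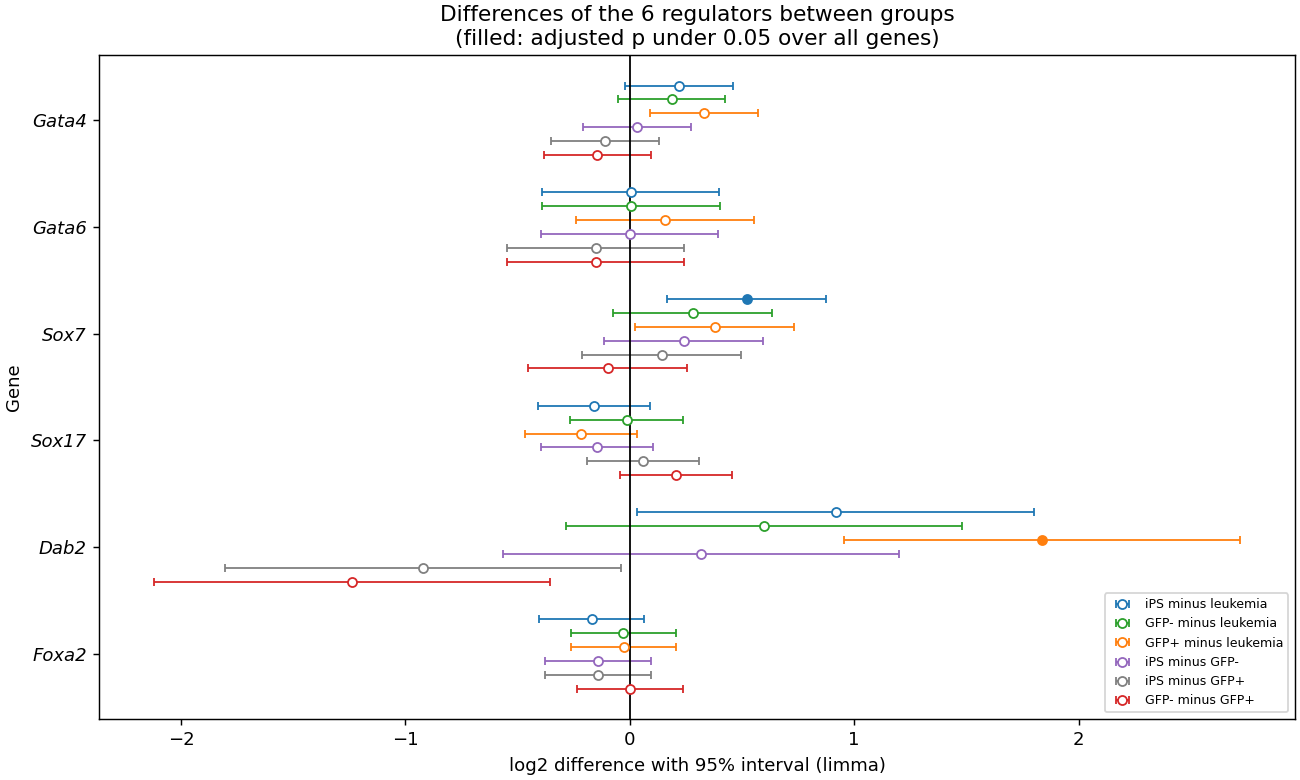
log2 difference (x axis) with its 95% limma interval for each regulator (y axis) in the 6 comparisons, with filled points for an adjusted p under 0.05 over all genes. Filled are Sox7 in iPS minus leukemia, at 0.52, and Dab2 in GFP-positive minus leukemia, at 1.84.

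Dab2 is set here beside markers of other cell types, which varied among the colony arrays. The list of 8 macrophage genes stood at 6.13 to 6.22 in iPS cells, at 7.01, 7.78 and 6.21 in GFP-negative colonies, at 6.57, 6.57 and 9.00 in GFP-positive colonies, and at 6.86 to 6.90 in leukemia. The list of 4 squamous epithelial genes stood at 6.19 to 6.26 in iPS cells, at 10.61, 7.07 and 5.80 in GFP-negative colonies, at 10.43, 10.48 and 10.86 in GFP-positive colonies, and at 4.81 to 5.10 in leukemia. GFP-negative replicate 3, the colony array lowest in Dab2, was also the lowest colony array in both lists. GFP-positive replicate 3, the array highest in Dab2, was the highest in both. Other arrays did not follow the lists. GFP-negative replicate 1 had a squamous list within the GFP-positive range, at 10.61, with Dab2 at 7.27, near the iPS level. GFP-positive replicate 1 had Dab2 at 8.05 with a macrophage list of 6.57, below that of leukemia. The iPS arrays had a higher Dab2 level than leukemia with a lower macrophage list.

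Within the macrophage list only Cd68, a lysosomal protein, was higher in GFP-positive colonies than in leukemia, by 1.44 ± 0.23 (limma adjusted p = 0.00118), and 0 of 8 genes were lower. Cd68 was also higher in GFP-negative colonies, by 1.69 ± 0.23 (adjusted p = 0.000422), and in iPS cells, by 1.36 ± 0.23 (adjusted p = 0.00147), where Cd14, a co-receptor for lipopolysaccharide, fell by 2.25 ± 0.53 (adjusted p = 0.0103). Of the squamous genes, 3 of 4 were higher in GFP-positive colonies than in leukemia, among them Krt6a by 8.07 ± 1.54 (adjusted p = 0.00365) and Krt14 by 7.07 ± 1.32 (adjusted p = 0.00325), both keratins of stratified epithelium. Of those 4, Krt17 alone passed in iPS cells, with a rise of 4.03 ± 0.66 (adjusted p = 0.00129), and alone passed in GFP-negative colonies, with a rise of 4.35 ± 0.66 (adjusted p = 0.000922). Without both uneven colony arrays the median macrophage difference in GFP-positive colonies was -0.26, in place of 0.54 with all arrays, and 1 gene was higher, Cd68, and 1 lower, Cd14. The part of macrophage or epithelial cells in the Dab2 levels was not tested.

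**Figure D3:**
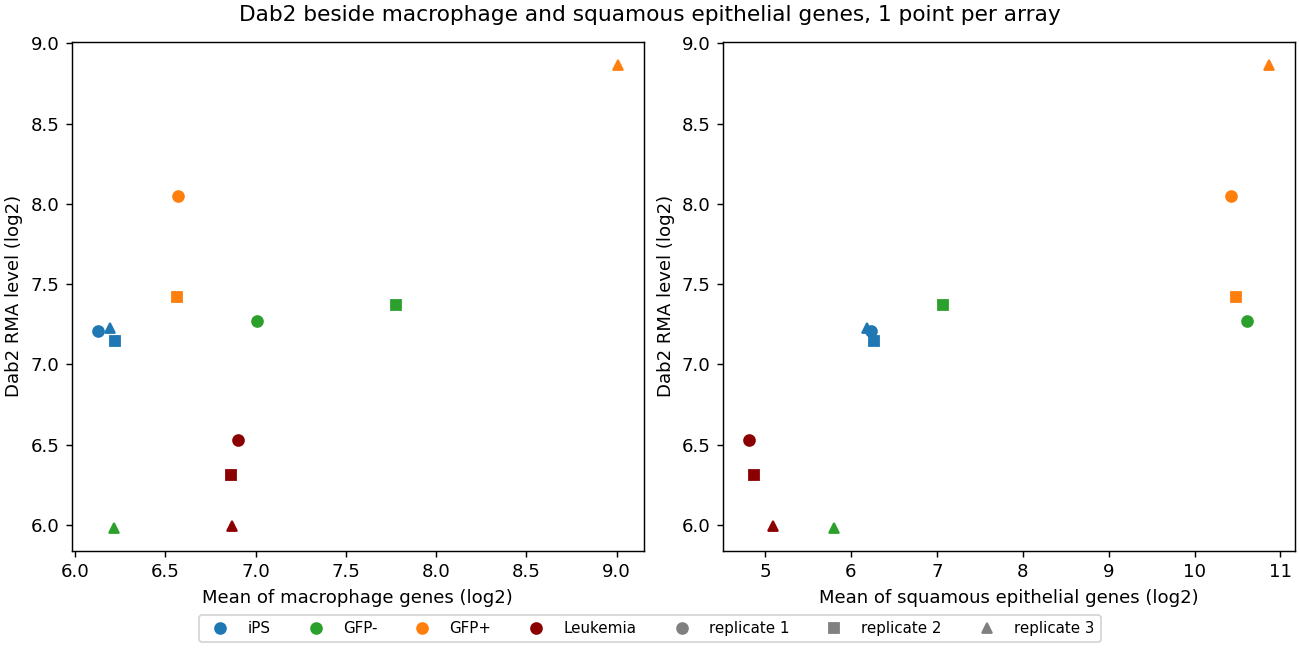
Dab2 level (y axis, log2) against the mean of 8 macrophage genes (left, x axis, log2) and of 4 squamous epithelial genes (right, x axis, log2), 1 point per array, coloured by group and marked by replicate. GFP-positive replicate 3 lies at the top right of both panels, at 8.87 for Dab2.

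The genes whose pattern was most like each regulator were taken by Pearson correlation over the 12 arrays, among about 5016 named genes with an SD of at least 0.5. They are a description, since arrays of a group share their state. Dab2 was followed most closely by Gna14, a G protein subunit, Dmkn, an epidermal secreted protein, and Prr13, each at 0.93, and without GFP-positive replicate 3 at 0.89, 0.91 and 0.92. Gna14 read 6.71, 6.84 and 6.91 in iPS cells, 7.71, 6.82 and 6.18 in GFP-negative colonies, 8.33, 7.68 and 9.84 in GFP-positive colonies, and 6.29, 6.10 and 6.09 in leukemia. Like Dab2, it was highest in GFP-positive replicate 3 and lowest among colonies in GFP-negative replicate 3.

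Gata4 was followed by Grhl3, an epithelial transcription factor, at 0.89, Sgtb at 0.84 and Dpp7 at 0.83, and Sox7 by Gabarapl1, an autophagy protein, at 0.88, Efna3 at 0.86 and Atp6v0a4 at 0.85. Foxa2 was closest to Prl2c5 at 0.84, Arhgef6 at 0.81 and Dnmt3a at 0.77, and Sox17 to Ssbp3 at 0.74, Gadd45b at 0.71 and Slc9a5 at 0.69. For Gata6 the 3 closest, Trim72, Tas2r143 and Olfr410, were at 0.82, 0.81 and 0.80 with all arrays but at 0.13, -0.12 and -0.12 without GFP-positive replicate 1. Apart from Dab2, with an SD of 0.84 over the 12 arrays, the regulators had SDs of only 0.11 to 0.26, so these likenesses rest on small movements. Between the regulators themselves the correlations over 12 arrays ran from -0.50, for Sox17 and Dab2, to 0.54, for Gata4 and Sox7.

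Among the relatives and cofactors of these regulators Gata2, Gata3 and Zfpm1 had the largest called differences from leukemia. Of 10 measured, 2 were higher and 2 lower in iPS cells, 0 and 2 in GFP-negative colonies, and 1 and 1 in GFP-positive colonies, each against leukemia, with median differences of 0.12, -0.03 and -0.04 beside -0.03, -0.01 and -0.04 over all genes. The count of higher genes in iPS cells was 1 with any array of that comparison left out, and without both uneven colony arrays the counts for GFP-positive colonies were 3 higher and 2 lower. Without those 2 arrays the genes called higher in iPS cells were Dab1, with a mean of 7.36 against 5.64 in leukemia, and Zfpm2, with 5.52 against 4.78. Gata2, a factor of blood progenitors and of trophoblast, read 6.76, 6.50 and 6.83 in iPS cells, 9.36, 7.55 and 6.81 in GFP-negative colonies, 9.60, 8.11 and 9.00 in GFP-positive colonies, and 6.58, 6.39 and 6.29 in leukemia. All GFP-positive arrays and GFP-negative replicates 1 and 2 lay above the iPS and leukemia arrays. Gata2 rose by 2.48 ± 0.55 in GFP-positive colonies over leukemia (limma adjusted p = 0.00848). It was lower in iPS cells than in GFP-positive colonies, by -2.21 ± 0.55 (adjusted p = 0.0328), a call lost in 5 of the 6 fits with 1 array left out.

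Gata3, a factor of T cell development, fell by 1.80 ± 0.19 in iPS cells (limma adjusted p = 7.69e-05), by 1.39 ± 0.19 in GFP-negative colonies (adjusted p = 0.000531) and by 1.39 ± 0.19 in GFP-positive colonies (adjusted p = 0.000531), each against leukemia. Zfpm1, which encodes the GATA cofactor FOG1, fell by 1.89 ± 0.34 in iPS cells (adjusted p = 0.00224) and by 1.34 ± 0.34 in GFP-negative colonies (adjusted p = 0.0178). The GFP-negative call for Zfpm1 was lost without GFP-negative replicate 2 or any leukemia array. Gata5, a relative that endoderm also makes, read 5.67, 5.42 and 5.72 in iPS cells, 5.62, 5.63 and 5.64 in GFP-negative colonies, 5.67, 5.52 and 5.39 in GFP-positive colonies, and 5.58, 5.47 and 5.69 in leukemia, which are overlapping ranges.

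The other transcription factors of primitive and visceral endoderm stayed below the test against leukemia. Of the 6 measured, Hnf4a, Foxa1, Foxa3, Hhex, Lhx1 and Eomes, 0 were called in either direction in iPS cells, GFP-negative or GFP-positive colonies, with median differences of 0.17, 0.05 and 0.05. Without both uneven colony arrays 1 was higher in iPS cells and in GFP-positive colonies, Eomes, a T-box factor that T cells also make. With all arrays Eomes stood at 0.78 ± 0.30 in iPS cells (limma adjusted p = 0.0914) and 0.82 ± 0.30 in GFP-positive colonies (adjusted p = 0.0803). Foxa3, a forkhead factor of liver and gut, was higher in iPS cells than in GFP-positive colonies, by 0.54 ± 0.12 (adjusted p = 0.0202). Foxa3 read 6.48, 6.61 and 6.46 in iPS cells against 6.12, 5.91 and 5.91 in GFP-positive colonies, and the call was lost without any iPS array or without GFP-positive replicate 3.

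The signalling pathway upstream of primitive endoderm came next. Of 10 genes of FGF, ERK and Pdgfra signalling, 8 rose in iPS cells, 8 in GFP-negative colonies and 6 in GFP-positive colonies over leukemia, 0 fell, and the median differences were 1.81, 1.64 and 1.56. Without both uneven colony arrays 9 were higher and 1 lower in iPS cells, 8 and 1 in GFP-negative colonies, and 9 and 0 in GFP-positive colonies. The lower gene was Grb2. Fgf4, the ligand, read 10.51, 10.51 and 10.44 in iPS cells, 7.30, 10.19 and 10.68 in GFP-negative colonies, 8.94, 10.16 and 8.71 in GFP-positive colonies, and 7.41, 7.00 and 6.96 in leukemia. It rose by 3.36 ± 0.72 in iPS cells (limma adjusted p = 0.00609), and GFP-negative replicate 1 stayed at the leukemia level. The iPS level was close to that of GFP-negative replicates 2 and 3.

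Fgfr1, the receptor that epiblast and primitive endoderm share, rose by 3.33 ± 0.36 in GFP-negative colonies (limma adjusted p = 9.49e-05) and by 3.57 ± 0.36 in GFP-positive colonies (adjusted p = 5.74e-05). In iPS cells its mean was 8.68, against 5.82 in leukemia. Fgfr2 averaged 5.74 in iPS cells, 7.54 in GFP-negative colonies, 6.44 in GFP-positive colonies and 4.85 in leukemia. With all arrays Fgfr2 was not called between iPS cells and either kind of colony. Without both uneven colony arrays it was called lower in iPS cells than in each. Without GFP-positive replicate 3 alone, 1 gene of this list was called lower in iPS cells than in GFP-positive colonies. Spry2, a feedback inhibitor that ERK signalling induces, rose by 4.15 ± 0.68 in iPS cells (adjusted p = 0.00125), 3.30 ± 0.68 in GFP-negative colonies (adjusted p = 0.00576) and 3.08 ± 0.68 in GFP-positive colonies (adjusted p = 0.00819). With 1 array left out in turn, the count of higher genes in this list ranged from 5 to 8 for the GFP-negative comparison and from 3 to 7 for the GFP-positive one.

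Pdgfra, the receptor used to mark early primitive endoderm in mouse embryos, is also a gene of fibroblasts. It read 6.66, 6.95 and 7.16 in iPS cells, 5.44, 5.84 and 5.38 in GFP-negative colonies, 6.81, 6.18 and 5.73 in GFP-positive colonies, and 5.50, 5.50 and 5.51 in leukemia. Pdgfra rose by 1.42 ± 0.24 in iPS cells over leukemia (limma adjusted p = 0.00165) and by 1.37 ± 0.24 in iPS cells over GFP-negative colonies (adjusted p = 0.0138), the second call being lost without iPS replicate 2 or 3. In GFP-positive colonies the difference from leukemia was 0.73 ± 0.24 (adjusted p = 0.0547), which missed the threshold. Without both uneven colony arrays Pdgfra was called higher in that comparison.

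The fibroblast list moved with Pdgfra in iPS cells. It stood at 7.93 to 8.07 in iPS cells, 6.54, 6.18 and 5.73 in GFP-negative colonies, 7.01, 5.83 and 7.11 in GFP-positive colonies, and 5.87 to 5.95 in leukemia. Of its 6 genes, 4 were higher in iPS cells, none in GFP-negative colonies and 1 in the GFP-positive ones, with Dcn, a matrix proteoglycan, at 10.73, 10.64 and 10.81 in iPS cells against 4.99, 4.72 and 4.60 in leukemia. The part of fibroblasts in the Pdgfra level was not tested.

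Basement membrane genes are made in quantity by primitive endoderm and its parietal descendants. Of 10 measured, 8 rose in iPS cells, 7 in GFP-negative colonies and 6 in GFP-positive colonies over leukemia and 0 fell, with median differences of 3.90, 2.77 and 2.29. Without both uneven colony arrays the same 8 genes were higher in each of these comparisons. With 1 array left out in turn the count was 7 in iPS cells, 5 to 9 in GFP-negative colonies and 6 to 8 in GFP-positive colonies. The GFP-positive median was 3.13 without replicate 3. Nid1, the linker protein nidogen 1, read 11.62, 11.62 and 11.68 in iPS cells, 11.72, 11.96 and 10.45 in GFP-negative colonies, 12.61, 10.91 and 9.89 in GFP-positive colonies, and 3.99, 4.43 and 4.44 in leukemia. It rose by 7.36 ± 0.58 in iPS cells (limma adjusted p = 8.36e-06), 7.09 ± 0.58 in GFP-negative colonies (adjusted p = 1.22e-05) and 6.85 ± 0.58 in GFP-positive colonies (adjusted p = 1.58e-05). Sparc, a collagen-binding matrix protein, rose by 4.73, 4.69 and 4.38 in the same comparisons, each ± 0.32.

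Lama1, the laminin chain of the embryonic basement membrane, separated iPS cells from both kinds of colony. It read 9.40, 9.29 and 9.36 in iPS cells, 6.35, 6.92 and 6.38 in GFP-negative colonies, 8.00, 7.77 and 7.18 in GFP-positive colonies, and 5.96, 5.79 and 5.60 in leukemia. No group overlapped with another. Lama1 was higher in iPS cells than in GFP-negative colonies by 2.80 ± 0.21 (limma adjusted p = 0.000184) and than in GFP-positive colonies by 1.70 ± 0.21 (adjusted p = 0.00241), and both calls held with each array left out in turn. With all arrays Col4a1 and Col4a2, the collagen IV chains, were called in no comparison with leukemia: the differences were 0.41 and 0.24 in iPS cells. Col4a2 averaged 6.32 in iPS cells, 6.70 in GFP-negative colonies, 6.62 in GFP-positive colonies and 6.07 in leukemia. Without GFP-negative replicate 3, 9 of the 10 genes passed in GFP-negative colonies over leukemia, which takes in at least 1 of these chains.

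**Figure D4:**
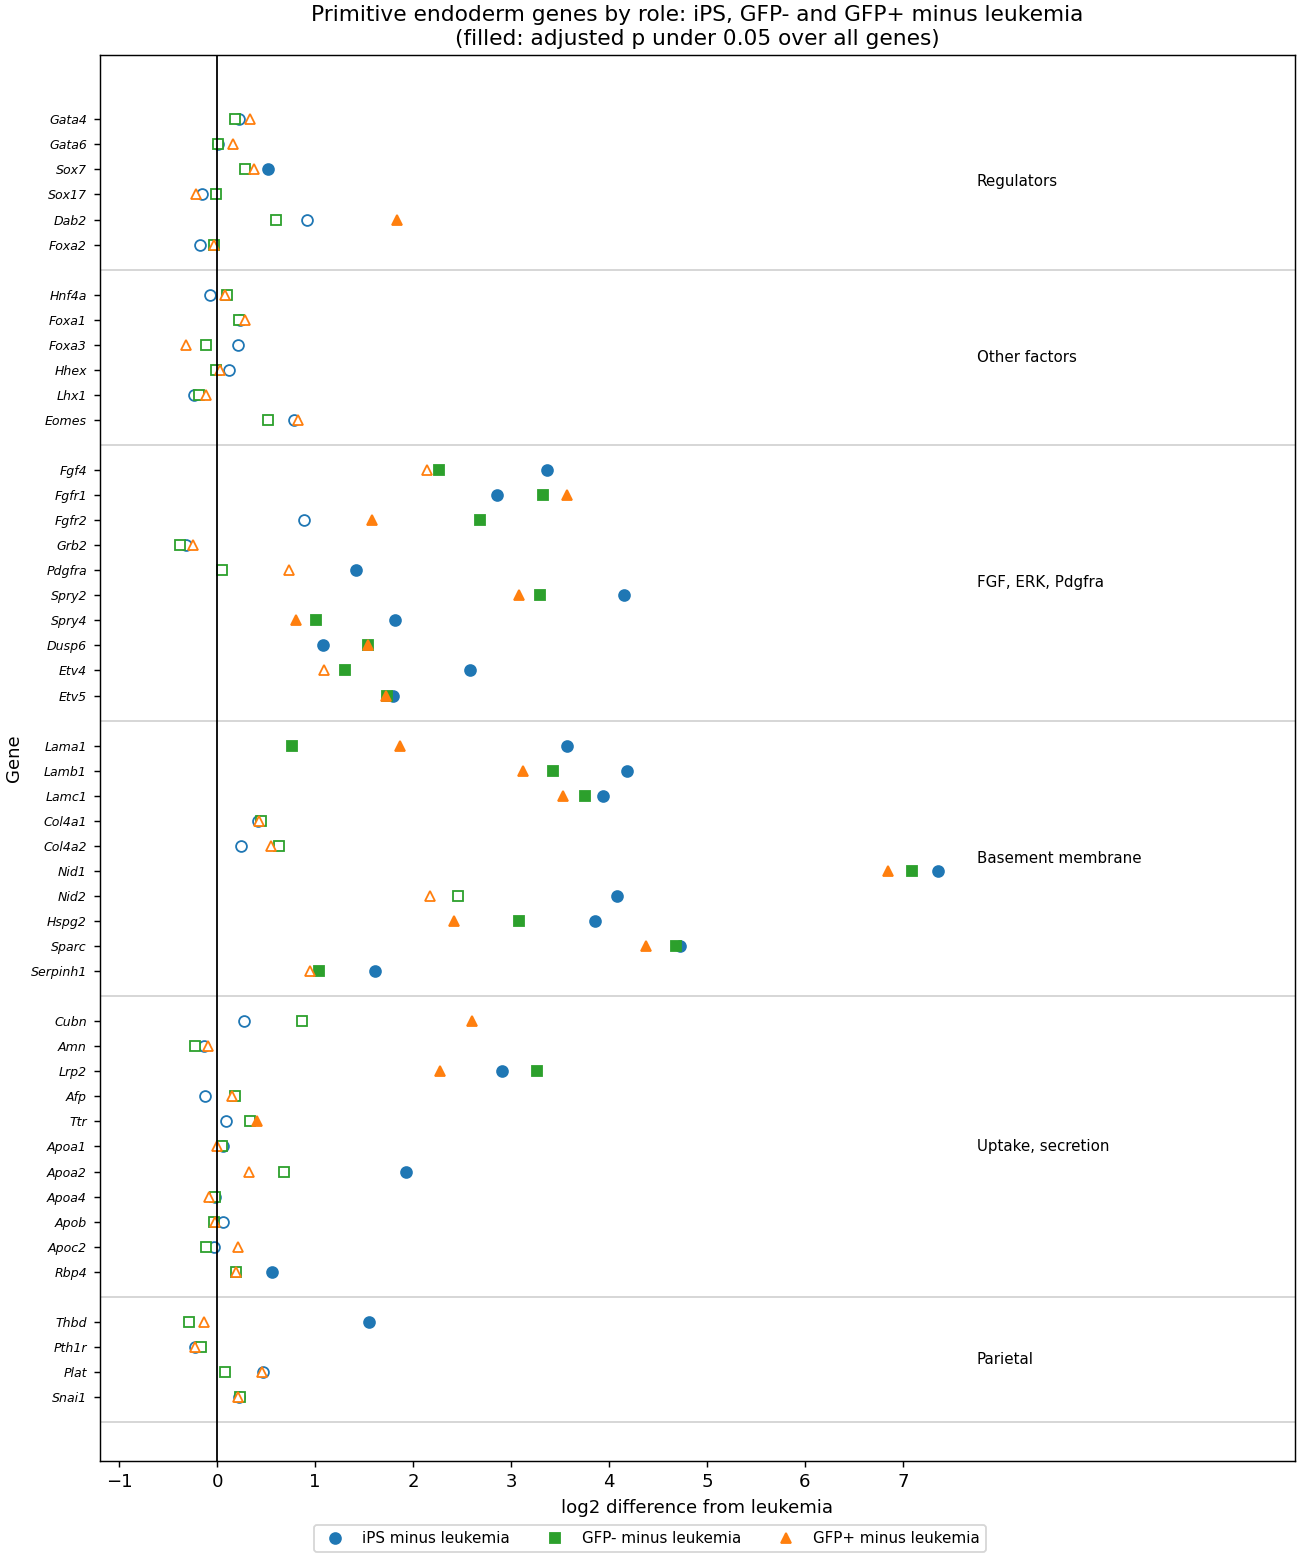
log2 difference from leukemia (x axis) for primitive endoderm genes by role (y axis), with iPS cells as circles, GFP-negative colonies as squares and GFP-positive colonies as triangles, filled where the adjusted p was under 0.05. The regulators and the other factors lie near 0 apart from Dab2, Eomes and, in iPS cells, Sox7, while FGF and basement membrane genes reach 7.36, at Nid1.

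Of 11 measured uptake and secretion genes of visceral endoderm, 3 rose in iPS cells, 1 in GFP-negative colonies and 3 in GFP-positive colonies over leukemia, with 0 lower and median differences of 0.06, 0.18 and 0.19. Those called were the receptor genes Lrp2, in all 3 comparisons, and Cubn, in GFP-positive colonies, with the secreted carriers Apoa2 and Rbp4 in iPS cells and Ttr in GFP-positive colonies. DAB2 serves megalin as its adaptor. Lrp2, which encodes megalin, read 7.88, 7.89 and 7.93 in iPS cells, 7.54, 8.92 and 8.33 in GFP-negative colonies, 8.24, 8.24 and 5.33 in GFP-positive colonies, and 4.95, 5.13 and 4.89 in leukemia. It rose by 2.91 ± 0.65 in iPS cells (limma adjusted p = 0.00805) and by 3.27 ± 0.65 in GFP-negative colonies (adjusted p = 0.00488). Its 2.28 ± 0.65 in GFP-positive colonies (adjusted p = 0.0303) was lost without replicate 1 or 2 of that group or any leukemia array.

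Cubn, which encodes cubilin, the partner of megalin, was high on 2 arrays of the series. It read 4.85, 5.02 and 4.99 in iPS cells, 5.73, 5.71 and 5.21 in GFP-negative colonies, 9.01, 7.91 and 4.93 in GFP-positive colonies, and 4.62, 4.72 and 4.70 in leukemia. The GFP-positive rise of 2.60 ± 0.77 (limma adjusted p = 0.0336) was lost in 5 of the 6 fits with 1 array left out, and was 3.78 without GFP-positive replicate 3. That replicate was lowest of its group in Lrp2 and Cubn and highest in Dab2. Amn, which anchors cubilin at the membrane, read 5.69 to 6.00 in iPS cells, 5.51 to 5.87 in GFP-negative colonies, 5.51 to 6.14 in GFP-positive colonies and 5.78 to 6.13 in leukemia. Without an array other than GFP-positive replicate 3 the count for the list in GFP-positive colonies was 0, and without replicate 3 it was 2. In GFP-negative colonies it was 2 without replicate 1 or replicate 2.

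Apoa2, an apolipoprotein, rose by 1.93 ± 0.43 in iPS cells (limma adjusted p = 0.00736). Afp, alpha-fetoprotein, the secreted mark of visceral endoderm, read 5.47, 5.40 and 5.62 in iPS cells, 5.86, 5.99 and 5.57 in GFP-negative colonies, 5.67, 5.94 and 5.73 in GFP-positive colonies, and 5.39, 5.95 and 5.54 in leukemia. The groups overlapped for Afp in all comparisons with leukemia.

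**Figure D5:**
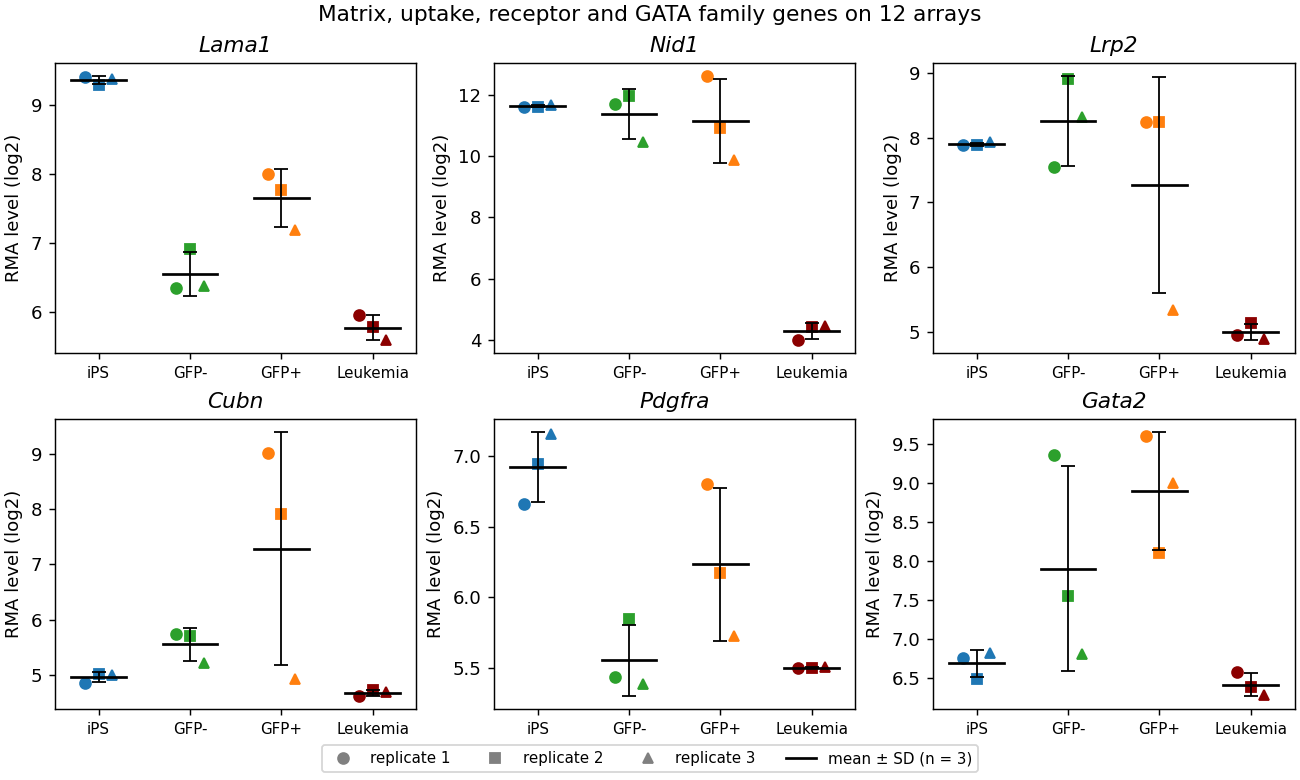
RMA level (y axis, log2, own scale per panel) on 12 arrays by group (x axis) for Lama1, Nid1, Lrp2, Cubn, Pdgfra and Gata2, with points for arrays and bars for the mean ± SD of 3 arrays. Lama1 orders the groups without overlap, and Cubn is high on GFP-positive replicates 1 and 2, at 9.01 and 7.91.

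Markers of the later endoderm layers were mostly still. Of 4 parietal endoderm genes, 1 was called in iPS cells and 0 in either kind of colony, each against leukemia. It was Thbd, thrombomodulin, with 7.76, 7.77 and 7.44 in iPS cells, 5.99, 5.95 and 5.53 in GFP-negative colonies, 5.98, 5.83 and 6.13 in GFP-positive colonies, and 5.75, 6.32 and 6.27 in leukemia. Thbd was higher in iPS cells than in leukemia by 1.55 ± 0.18 (limma adjusted p = 0.000151), than in GFP-negative colonies by 1.84 ± 0.18 (adjusted p = 0.000918) and than in GFP-positive colonies by 1.68 ± 0.18 (adjusted p = 0.00150), and these calls held with each array left out in turn.

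Of 6 anterior visceral endoderm genes, 1 was higher in each group than in leukemia: Otx2, a homeobox factor that the epiblast also makes, by 2.57 ± 0.76 in iPS cells (limma adjusted p = 0.0320), 2.51 ± 0.76 in GFP-negative colonies (adjusted p = 0.0395) and 2.80 ± 0.76 in GFP-positive colonies (adjusted p = 0.0238). The Otx2 call was lost in 6, 5 and 5 of the 6 fits with 1 array left out, and without both uneven colony arrays Lefty1, a Nodal antagonist, was called beside it. Of 5 mesendoderm and definitive endoderm genes, 1 was lower in each group than in leukemia, the chemokine receptor Cxcr4, which T cells carry too, and it differed by -3.95 ± 0.42 in iPS cells, -3.71 ± 0.42 in GFP-negative colonies and -3.69 ± 0.42 in GFP-positive colonies. Of 6 gut and airway genes, 0 were called in any of the 6 comparisons.

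The endothelial list, which bears on the SOXF factors, stood at 6.07 to 6.12 in iPS cells, 5.52 to 6.02 in GFP-negative colonies, 5.70 to 5.94 in GFP-positive colonies and 5.79 to 5.81 in leukemia. Of its 7 genes, 3 were higher and 1 lower in iPS cells, and 1 higher and 1 lower in each kind of colony. Tek, the angiopoietin receptor, rose by 2.08 ± 0.36 in iPS cells (limma adjusted p = 0.00164), by 1.30 ± 0.36 in GFP-negative colonies (adjusted p = 0.0245) and by 1.74 ± 0.36 in GFP-positive colonies (adjusted p = 0.00548). The GFP-negative call for Tek was lost without GFP-negative replicate 3, without any leukemia array and with the 6 arrays of the comparison alone. Erg, an ETS factor, differed by -0.41 ± 0.11 in iPS cells (adjusted p = 0.0217), -0.48 ± 0.11 in GFP-negative colonies (adjusted p = 0.0116) and -0.50 ± 0.11 in GFP-positive colonies (adjusted p = 0.00886), with the GFP-negative call lost without leukemia replicate 1 and the iPS call lost in 3 of the 6 fits with 1 array left out and with cyclic loess. Kdr, a VEGF receptor, at 0.41 ± 0.13 (adjusted p = 0.0437), and Tie1, a receptor kinase, at 1.01 ± 0.33 (adjusted p = 0.0472), were called higher in iPS cells than in leukemia, calls lost in 5 and 6 of those 6 fits and with the replicate block. Pecam1, an adhesion molecule of endothelium and leukocytes, and Cdh5, the cadherin of endothelium, differed by -1.04 ± 0.86 (adjusted p = 0.446) and -0.03 ± 0.33 (adjusted p = 0.966) in iPS cells. Pecam1 read 8.54 to 8.57 in iPS cells and 9.52 to 9.67 in leukemia. Without both uneven colony arrays it was called lower in iPS cells and in GFP-positive colonies than in leukemia. The part of endothelial cells in the Sox7 level was not tested.

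Of 7 cardiac and smooth muscle genes, which share GATA4 as a regulator in the heart, 3 rose in iPS cells and 1 in each kind of colony, led by Acta2, smooth muscle actin, at 2.12 ± 0.32 in iPS cells (limma adjusted p = 0.000774). Of the 12 pluripotency genes, 9 rose in iPS cells and 5 in each kind of colony, or 11, 11 and 10 without both uneven colony arrays, and all 7 T lineage genes fell in each group, all against leukemia. Nanog, which opposes Gata6 in the embryo, read 12.32, 12.39 and 12.21 in iPS cells, 5.07, 11.35 and 11.85 in GFP-negative colonies, 9.56, 11.93 and 7.97 in GFP-positive colonies, and 4.99, 4.32 and 4.85 in leukemia. Across the same arrays Gata6 stayed between 4.58 and 5.36, and its correlation with Nanog over the 12 arrays was 0.07. Because Gata6 group means lay above only 22.5% to 25.7% of all genes, this correlation does not test the opposition of the 2 factors.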

How the data were processed

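Each array's deposited values are log2 expression levels of probe sets. The submitters' processing notes name RMA, a method that corrects background, makes the distributions of all arrays equal and sums up the probes of a set. For its software version, a genome build or a filter, the sources used here give nothing. That equalizing step removes a shift shared by most genes. The table held 41345 probe sets and 0 missing values; 23521 had 1 gene symbol in the platform annotation, 1814 had several and 16010 had none. Only probe sets with 1 symbol were used, and the brightest stood for a gene (22180 genes, 1082 with more than 1 probe set). All 6 members had 1 probe set; some listed genes, among them Trf, T, Lck and Krt5, had none with a single symbol. Signal over background is unknown without detection values, and the number of arrays limits precision.

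With limma 3.58.1 (lmFit, eBayes; R 4.3.3) a mean per group was fitted over all 12 arrays, p-values were adjusted by Benjamini-Hochberg over all genes, and a gene was called at an adjusted p under 0.05. The fit was tested on simulated data. The members and the gene lists were chosen with earlier results of these data known. Named genes are the members, the 2 called genes with the largest difference per list and comparison, the 3 genes most like each member, and Nanog, Pou5f1, Cd3e and Ptprc; other list genes given with values were chosen after their values were seen. Same-numbered replicates of different groups did not deviate together: the correlations of 18 such pairs had a median of 0.01 and 2 passed 0.1, so numbers were not taken to pair arrays. Promoter windows are the bases before each RefSeq start on GRCm38.p6. Alternatives were cyclic loess scaling, the mean of all probe sets, a filter on low values, a trended robust prior, array weights, the 6 arrays of a comparison alone, the replicate block, and arrays left out.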

Additional observations from a re-analysis of the deposited data

How the results depend on the processing

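Over 14 alternative fits (13 for Gata6, which the filter on low values removes while keeping 13980 genes and the other 5 members), the values of single members in single comparisons stayed on the same side of the threshold with the same sign in 445 cases, gained a call in 15, lost one in 5 and changed sign in 33. The Dab2 call in GFP-positive colonies over leukemia held in 14 of 14 (1.46 to 2.18, adjusted p 0.000187 to 0.0353), and the Sox7 call in iPS cells over leukemia in 9 of 14 (0.42 to 0.68, adjusted p 0.00370 to 0.140). The number of members called in iPS cells against leukemia, 1 as reported, was 3 with array weights, 2 with its 6 arrays alone, 2 without both uneven colony arrays, and 0 to 1 with an array left out. In GFP-positive colonies against leukemia, 1 as reported, it was 2 with cyclic loess, 2 with the filter on low values, 3 with array weights, 2 without both uneven colony arrays, and 1 to 2 with an array left out. It was 1 in place of 0 with array weights in GFP-negative colonies against leukemia and in iPS cells against GFP-positive colonies. Calls gained were of Gata4 (GFP-positive over leukemia, adjusted p 0.0126 to 0.175 over the alternatives), Sox7 (GFP-positive over leukemia, 0.0372 to 0.351) and Dab2 (iPS over leukemia, 0.000371 to 0.313), and under array weights of Gata4 in iPS cells over leukemia and of Dab2 in the 2 comparisons just named. With the replicate number as a replicate block the members called in GFP-positive colonies against leukemia were 2 in place of 1, since Sox7 passed at 0.38 (adjusted p = 0.0372), and no other call of a member changed.

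Signs turned only for values near 0 or with wide intervals. With cyclic loess, Sox17 in GFP-negative minus leukemia was 0.076, Foxa2 was 0.074 in GFP-negative and 0.087 in GFP-positive minus leukemia, and Gata6 in iPS minus GFP-negative was 0.040. With array weights, Gata6 in iPS minus leukemia was -0.00029, Foxa2 was 0.092 in GFP-negative and 0.045 in GFP-positive minus leukemia and 0.048 in GFP-negative minus GFP-positive, Dab2 in iPS minus GFP-negative was -0.016, and Sox17 in iPS minus GFP-positive was -0.051. Without both uneven colony arrays, Sox17 in iPS minus GFP-positive was -0.020 and Foxa2 in GFP-positive minus leukemia 0.00027. With an array left out, Gata6 ranged from -0.086 to 0.089 in iPS minus leukemia, -0.059 to 0.056 in GFP-negative minus leukemia, -0.068 to 0.28 in GFP-positive minus leukemia, -0.091 to 0.084 in iPS minus GFP-negative, -0.27 to 0.072 in iPS minus GFP-positive and -0.27 to 0.073 in GFP-negative minus GFP-positive. Foxa2 ranged from -0.11 to 0.027 in GFP-negative minus leukemia, -0.095 to 0.011 in GFP-positive minus leukemia and -0.082 to 0.067 in GFP-negative minus GFP-positive. Sox17 ranged from -0.054 to 0.039 in GFP-negative minus leukemia and -0.020 to 0.16 in iPS minus GFP-positive. Gata4 ranged from -0.015 to 0.059 and Dab2 from -0.13 to 0.57 in iPS minus GFP-negative. The causes were not tested.

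Over all genes, array weights gave 10545 calls in place of 5395 for iPS cells against leukemia, 8673 in place of 4655 for GFP-negative colonies against leukemia, 8188 in place of 4848 for GFP-positive colonies against leukemia, 4397 in place of 943 for iPS cells against GFP-negative colonies, 6984 in place of 2304 for iPS cells against GFP-positive colonies and 1315 in place of 0 between the colonies. The 6 arrays of a comparison alone gave 10525 calls for iPS cells against leukemia and 190 for iPS cells against GFP-negative colonies. Without GFP-negative replicate 1 the colonies differed in 1019 genes, and Dab2 was not among them.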
